A study of Mus musculus with 6 samples.

Results

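Blood and lymphatic endothelial genes were examined in fibroblast preparations sorted from mouse ear skin. The set was a list of 38 genes named for their known role in endothelium, each read from the probe sets whose platform annotation names that gene alone. The list was drawn up with earlier results of these data known. All 38 were measured, by 66 of 45037 non-control probe sets, among 18193 genes in all. They were divided into 5 lymphatic genes (Lyve1, Prox1, Mmrn1, Stab1 and Stab2), 8 genes of transcription regulators and 25 genes of blood vessels. The samples were 6 Affymetrix arrays, 3 labelled CAF (cancer-associated fibroblasts) and 3 labelled NDF (normal dermal fibroblasts). The CAF donors were K14-HPV16 transgenic mice whose ears were visibly dysplastic, and in this line the keratin 14 promoter directs human papillomavirus 16 genes to basal keratinocytes rather than to fibroblasts. NDF came from normal ears of non-transgenic FVB/n mice of the same age. All mice were males 4 months old, no treatment is named in either group, and 15 mice of each genotype were used. Cells were taken by flow cytometry for PDGFRα, a receptor of fibroblasts that endothelial cells are not known for, and the labels do not say whether each repetition was its own pool of mice. The p-values therefore measure the spread between these samples, which may be technical.

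Blood vessels and lymphatic vessels are both lined by endothelial cells, which share surface proteins such as PECAM1 and part company in development, when SOX18 and then PROX1 switch venous cells to the lymphatic fate. ETS family factors (ERG, FLI1, ETS1), the SOXF factors (SOX7, SOX17, SOX18) and the partners TAL1 and LMO2 govern endothelial genes, and several of them also act in blood cells. In skin, dermal capillaries and lymphatic capillaries run close to the fibroblasts that were sorted, and growth of new vessels is a known feature of premalignant stages in the K14-HPV16 line. LYVE1 and STAB1 are also carried by some tissue macrophages, THBD and PROCR by other cell types, and VWF and MMRN1 by platelets.

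Promoters are shown for the 4 genes of the set with the smallest p among those with an entry in the RefSeq promoter table (build GRCm38.p6), which held 17 of the 38. Each stretch is the 250 bases before the RefSeq start, 5′ to 3′ on the gene's strand, and capitals mark matches on either strand to 3 short motifs: AGGAAG for ETS factors, AACAAT for SOX factors and AGATAA for GATA factors. Mmrn1 lies at chr6:60944067-60944316 (plus strand), Robo4 at chr9:37401722-37401971 (plus strand), Emcn at chr3:137340828-137341077 (plus strand) and Tie1 at chr4:118489850-118490099 (minus strand).
Mmrn1: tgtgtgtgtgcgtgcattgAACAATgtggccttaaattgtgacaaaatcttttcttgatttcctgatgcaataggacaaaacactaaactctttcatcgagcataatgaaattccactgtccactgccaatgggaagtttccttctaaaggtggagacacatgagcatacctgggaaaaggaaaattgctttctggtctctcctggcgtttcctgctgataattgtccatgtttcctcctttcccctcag
Robo4: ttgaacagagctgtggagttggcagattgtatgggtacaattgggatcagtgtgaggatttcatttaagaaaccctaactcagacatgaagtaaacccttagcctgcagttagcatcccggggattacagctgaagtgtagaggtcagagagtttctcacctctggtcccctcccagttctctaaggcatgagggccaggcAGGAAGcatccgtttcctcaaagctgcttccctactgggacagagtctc
Emcn: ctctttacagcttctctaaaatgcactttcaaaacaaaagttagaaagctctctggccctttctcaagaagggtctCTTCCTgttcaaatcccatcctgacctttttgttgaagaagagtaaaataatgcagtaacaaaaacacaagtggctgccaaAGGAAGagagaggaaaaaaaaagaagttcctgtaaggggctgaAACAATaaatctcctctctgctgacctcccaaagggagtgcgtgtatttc
Tie1: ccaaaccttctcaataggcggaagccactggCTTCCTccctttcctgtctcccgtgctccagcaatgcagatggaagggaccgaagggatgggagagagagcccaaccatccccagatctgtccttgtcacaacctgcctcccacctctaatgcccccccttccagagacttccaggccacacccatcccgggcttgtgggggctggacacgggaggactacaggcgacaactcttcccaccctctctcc
Emcn holds 2 matches to AGGAAG and 1 to AACAAT, Robo4 and Tie1 hold 1 match each to AGGAAG, and Mmrn1 holds 1 match to AACAAT. Over the 17 matched genes, AGGAAG was in a window of 11 and AACAAT in a window of 5, against 32.3% and 10.9% of the 27025 genes in the table. AGATAA was in 2 of the 17 (11.4% of all genes), and the longer ETS motif CCGGAAGT, searched the same way, in 0 of the 17 (3.23% of all genes). The letters of the short ETS motif are not contained in the long one, and a match is a description of the sequence only.

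Array medians were 4.73 to 4.87, and over all genes 94 of 18193 were called, 89 of them higher in CAF. The mean correlation of an array with the others of its group was 0.978 to 0.982 in NDF and 0.956, 0.948 and 0.924 for CAF replicates 1, 2 and 3, so that CAF replicate 3 stood apart most. Without CAF replicate 3, 25 of the 38 endothelial genes had higher CAF values by unadjusted p under 0.05, and the median difference of the 38 was 1.03. Without NDF replicate 1 as well the values were 23 and 0.98. The share of all genes at this p is not given for these fits, so the counts cannot be read alone. At an adjusted p under 0.05, 156 and 113 of all genes were called in them, against 94 with all arrays.

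For 26 of the 38 endothelial genes every CAF array lay above every NDF array, and Lyve1, Mmrn1, Prox1, Mmrn2 and Emcn differed by more than 2 log2 units, but Lyve1 alone passed the test over all genes. The values are log2 intensities, and differences are CAF minus NDF from a limma fit over all 18193 genes with Benjamini-Hochberg adjustment. Of the 38 genes, 1 rose and 0 fell at an adjusted p under 0.05, where 0.489% of all genes rose and 0.0275% fell. By unadjusted p under 0.05, 26 of the 38 had higher and 0 had lower CAF levels, against 4.93% and 4.02% of all genes. The 26 genes with no overlap stand against 6.78% of all genes, and 0 of the 38 had all CAF arrays below all NDF arrays, against 8.66%. The difference was above 0 for 35 of the 38, against 44.5% of all genes, and above 1 for 21, against 4.08%. The median difference was 1.11 over the 38 genes and -0.04 over all genes. The differences of the 38 ranged from -0.24 to 3.38. In simulated data of this design with 18193 genes, 16% of changes of 1 log2 unit and 68% of changes of 2 passed the threshold. A gene that missed it is thus not shown to be equal in the groups. The changed genes were drawn at random with independent noise, and the median SE over all genes was 0.25. These shares therefore do not describe the 38 genes, among which Lyve1 had an SE of 0.36 and Prox1 of 0.54. In these bulk samples more endothelial cells, more RNA per cell and expression in other cells, the sorted fibroblasts included, cannot be told apart.

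**Figure D1:**
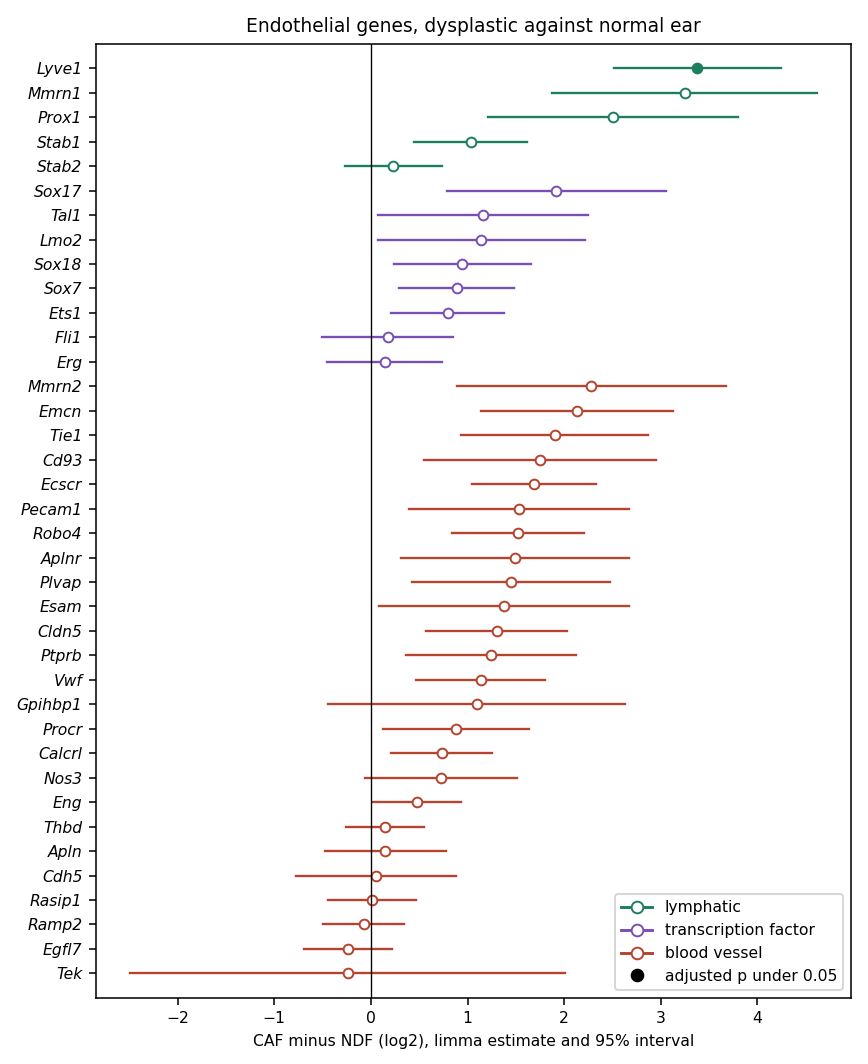
Difference between CAF and NDF (log2 units, x axis) for each of the 38 genes (y axis), with limma 95% intervals, coloured by group; the filled point marks an adjusted p under 0.05. Lyve1 is the filled point at 3.38, and the intervals of 12 genes reach below 0.

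Among the lymphatic genes, Lyve1, Mmrn1 and Prox1 showed the widest separation of the groups. Lyve1, which encodes a hyaluronan receptor of lymphatic endothelium, was at 4.33, 4.56 and 4.28 on the 3 NDF arrays and at 6.99, 8.41 and 7.91 on the CAF arrays. Every CAF array was more than 2 log2 units above every NDF array. Lyve1 rose by 3.38 ± 0.36 (SE, as for all differences), or 10.4-fold on this scale, from 4.39 ± 0.15 to 7.77 ± 0.72 (SD, n = 3; adjusted p = 0.0218). A difference of 2.43 was measured on the remaining Lyve1 probe set. The adjusted p was 0.113, 0.109 or 0.129 when NDF replicate 1, 2 or 3 was left out, while the difference stayed between 3.32 and 3.47.

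Mmrn1 encodes multimerin 1, a secreted protein of lymphatic endothelium and platelets. Its values were 4.47, 4.37 and 4.03 in NDF and 6.12, 8.18 and 8.30 in CAF. The groups did not overlap, and CAF replicate 1 was about 2 units below the other two CAF arrays. The difference of 3.25 ± 0.58 missed the threshold (adjusted p = 0.0878), and passed it without CAF replicate 1 (3.96, adjusted p = 0.00728). A further Mmrn1 probe set, near the lowest values on the arrays, differed by 0.03.

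Prox1, the master transcription factor of lymphatic identity, was at 6.18, 4.70 and 4.56 in NDF and 6.85, 8.35 and 7.76 in CAF. NDF replicate 1 was the highest of the normal samples and still below every CAF array. The difference was 2.51 ± 0.54 (adjusted p = 0.154). The 2 other Prox1 probe sets were dimmer and differed by 0.11 and -1.09. The latter was at 5.46 on NDF replicate 1 and between 2.52 and 3.63 on the other arrays.

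Stab1 and Stab2 encode scavenger receptors of lymphatic and sinusoidal endothelium. Stab1 was at 3.86, 4.09 and 3.90 in NDF and 4.58, 4.96 and 5.40 in CAF, without overlap, a difference of 1.03 ± 0.24 (adjusted p = 0.190). Stab2 was at 3.21, 3.53 and 3.37 in NDF and 3.40, 3.50 and 3.91 in CAF, and the groups overlapped, with a difference of 0.23 and a 95% interval of -0.27 to 0.73. The median of the 5 lymphatic genes was 2.51, against 1.13 for the 25 blood vessel genes and 0.92 for the 8 transcription regulators. Whether the medians differ was not tested. When each gene was given the average of its probe sets, the lymphatic median was 1.03.

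**Figure D2:**
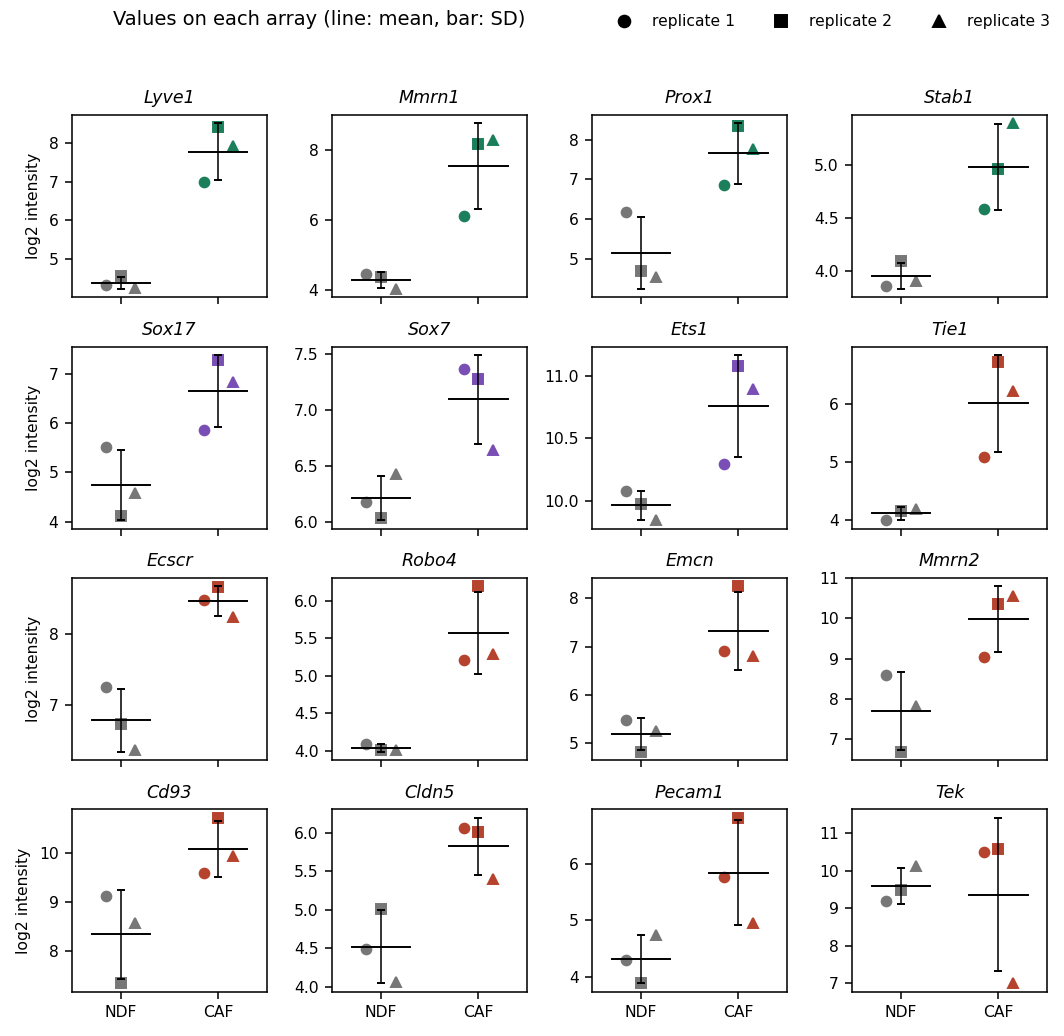
Log2 intensity (y axis) on each of the 3 NDF and 3 CAF arrays for 16 of the genes, with the group mean (line) and SD (bar); marker shape gives the replicate number, which does not pair the samples, and each panel has its own y scale. Of the 16 genes, Tek is the only panel in which CAF and NDF overlap. The 16 were picked by hand, and of all 38 genes 26 had no overlap. Stab2, Erg, Fli1, Cdh5, Rasip1, Apln, Ramp2, Gpihbp1, Egfl7, Thbd and Nos3 also overlap and are not shown.

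For all 3 SOXF genes every CAF array was above every NDF array, against 6.78% of all genes, and the ETS family genes divided. Sox17, an arterial regulator, was at 5.51, 4.11 and 4.58 in NDF and 5.86, 7.28 and 6.83 in CAF, where NDF replicate 1 came close to the lowest CAF array. Its difference was 1.92 ± 0.48 (adjusted p = 0.216), against -0.05 on a dimmer probe set. Sox7 was at 6.17, 6.03 and 6.42 in NDF and 7.37, 7.28 and 6.64 in CAF, a difference of 0.89 ± 0.25 (adjusted p = 0.300). Sox18, which acts upstream of Prox1 in lymphatic development, was at 3.82, 3.77 and 4.56 in NDF and 4.58, 5.11 and 5.30 in CAF, a difference of 0.95 (adjusted p = 0.370), and here the groups nearly touched. The dimmer Sox7 probe set differed by -0.05.

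Ets1, a factor of endothelial cells, lymphocytes and activated fibroblasts, was at 10.07, 9.97 and 9.84 in NDF and 10.30, 11.08 and 10.90 in CAF. Its difference was 0.80 ± 0.24 (adjusted p = 0.353), and its 3 other probe sets differed by 1.06 to 2.22. Erg, which maintains endothelial identity, was at 6.85, 6.64 and 6.24 in NDF and 6.36, 6.92 and 6.88 in CAF. The groups overlapped, at a difference of 0.14 with an interval of -0.45 to 0.74. The other Erg probe set differed by -0.85, and all its CAF arrays lay below all NDF arrays. Fli1, an ETS factor of endothelium and blood cells, differed by 0.17 (-0.51 to 0.85) and by 0.37 on its other probe set.

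The partners Tal1 and Lmo2, which join GATA factors in endothelial and blood precursors, differed by 1.16 and 1.14 (adjusted p = 0.516 and 0.517). Lmo2 was at 6.79, 7.12 and 8.46 on the CAF arrays, with replicate 3 the highest, and at 6.48, 5.91 and 6.56 in NDF. Of the 8 transcription regulators, 0 passed the limma test over all genes. An unadjusted p under 0.05 with higher CAF values was reached by 6, against 4.93% of all genes. These 6 were the ones with all CAF arrays above all NDF arrays, against 6.78% of all genes.

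Junction and adhesion genes of blood vessels gave mixed values. Cldn5, the tight junction claudin of endothelium, was at 4.49, 5.01 and 4.06 in NDF and 6.06, 6.01 and 5.40 in CAF. Its difference was 1.30 ± 0.31 (adjusted p = 0.190), with no overlap. Pecam1, the adhesion molecule CD31, was at 4.30, 3.89 and 4.75 in NDF and 5.76, 6.82 and 4.96 in CAF, and CAF replicate 3 was just above the highest NDF array. The difference was 1.53 ± 0.48 (adjusted p = 0.365).

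Ptprb, the phosphatase VE-PTP that restrains TEK and VE-cadherin signalling, was at 7.65, 6.60 and 7.37 in NDF and 8.11, 9.05 and 8.17 in CAF. The difference was 1.24 (adjusted p = 0.333), and 0.04 and 1.27 on 2 further probe sets. Esam, a junction adhesion molecule shared with platelets, was at 5.81, 5.63 and 4.00 in NDF and 6.04, 7.23 and 6.31 in CAF, a difference of 1.38 (adjusted p = 0.517) with NDF replicate 3 well below the other normal samples. Rasip1, a RAS-interacting protein needed for lumen formation, was at 3.93, 4.05 and 3.68 in NDF and 3.93, 4.05 and 3.72 in CAF. The groups overlapped throughout, and the interval of its difference was -0.44 to 0.47.

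Cdh5, the gene of VE-cadherin and a defining endothelial marker, did not separate on the probe set used. It was at 4.87, 4.56 and 4.48 in NDF and 4.34, 4.27 and 5.47 in CAF, a difference of 0.05 with an interval of -0.78 to 0.88. Its dimmer probe set was at 3.57, 3.36 and 3.40 in NDF and 3.97, 4.68 and 3.87 in CAF, without overlap, a difference of 0.73.

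Receptor genes of vessels were mostly higher on the CAF arrays, at differences of up to 1.90. Tie1, the orphan partner of TEK in angiopoietin signalling, was at 3.99, 4.16 and 4.19 in NDF and 5.09, 6.72 and 6.23 in CAF. It differed by 1.90 ± 0.41 (adjusted p = 0.148), and by 2.36 without CAF replicate 1, its lowest CAF array (adjusted p = 0.0324). Tek, the angiopoietin receptor TIE2, was at 9.19, 9.48 and 10.13 in NDF and 10.51, 10.58 and 6.99 in CAF. CAF replicates 1 and 2 were above every NDF array, and CAF replicate 3 was below all of them. The Tek difference of -0.24 (-2.49 to 2.01) thus turned to 0.94 without CAF replicate 3 (adjusted p = 0.259). With array weights it was 0.62, and without NDF replicate 3 it was 0.02.

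Ecscr, a surface regulator of endothelial migration, was at 7.25, 6.72 and 6.36 in NDF and 8.49, 8.67 and 8.24 in CAF. The gap between the groups was about 1 log2 unit, and the difference of 1.69 ± 0.27 had the smallest adjusted p of the set after Lyve1 (0.0633). Robo4, a roundabout receptor that stabilises vessels, was nearly constant in NDF at 4.10, 4.01 and 4.01, and was at 5.21, 6.19 and 5.29 in CAF. Its difference was 1.53 ± 0.29 (adjusted p = 0.107).

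Cd93, a C-type lectin receptor of endothelium and myeloid cells, was at 9.12, 7.33 and 8.56 in NDF and 9.60, 10.73 and 9.94 in CAF, a difference of 1.75 (adjusted p = 0.305). Of its 4 other probe sets, 1 differed by 1.84 and 3 by -0.24 to 0.00. Aplnr, the apelin receptor, differed by 1.49 and Eng, the TGF-β co-receptor endoglin, by 0.48 (adjusted p = 0.409 and 0.528), each with no overlap, and their other probe sets by 0.72 and 1.00. The ligand gene Apln differed by 0.15 (-0.48 to 0.77).

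Calcrl and Ramp2 together form an adrenomedullin receptor. Calcrl was at 10.14, 10.21 and 10.28 in NDF and 10.55, 11.13 and 11.14 in CAF, a difference of 0.73 ± 0.22 (adjusted p = 0.333), while 2 dim probe sets differed by -0.13 and 0.12. Ramp2 was at 8.81, 8.54 and 8.79 in NDF and 8.67, 8.73 and 8.50 in CAF, overlapping, with an interval of -0.50 to 0.35.

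Capillary surface and matrix genes included the widest differences among blood vessel genes. Mmrn2, a multimerin of the endothelial matrix that binds CD93, was at 8.60, 6.67 and 7.83 in NDF and 9.04, 10.35 and 10.55 in CAF. The difference was 2.28 ± 0.58 (adjusted p = 0.232), and on 3 further probe sets it was 1.18 to 2.38, each without overlap. Emcn, the sialomucin endomucin of capillaries and veins, was at 5.48, 4.83 and 5.26 in NDF and 6.92, 8.25 and 6.80 in CAF, a difference of 2.13 ± 0.42 (adjusted p = 0.116). CAF replicate 2 was its highest array, and the lowest CAF array was over 1 unit above the highest NDF array.

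Plvap, the diaphragm protein of fenestrated capillaries, was at 7.09, 7.53 and 7.42 in NDF and 7.93, 8.78 and 9.69 in CAF, a difference of 1.45 (adjusted p = 0.331). Gpihbp1, which carries lipoprotein lipase across capillaries, was at 4.48, 4.13 and 4.07 in NDF and 4.33, 4.72 and 6.92 in CAF. Only CAF replicate 3 stood clearly above the NDF range, and without it the difference went from 1.10 to 0.30. Egfl7, a secreted endothelial guidance factor, was at 7.18, 7.09 and 7.10 in NDF and 6.67, 7.15 and 6.85 in CAF, a difference of -0.24 (-0.69 to 0.22) with overlap. Its 3 other probe sets differed the other way, by 0.70 to 0.96, and averaging all 4 gave 0.58.

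Genes of haemostasis and vessel tone had a median difference of 0.80 over 4 genes. For 2 of them all CAF arrays lay above all NDF arrays, against 6.78% of all genes. Vwf, the platelet-binding factor stored in endothelium, was at 5.63, 5.12 and 5.45 in NDF and 6.29, 7.07 and 6.25 in CAF, a difference of 1.13 ± 0.28 without overlap (adjusted p = 0.216). Procr, the endothelial protein C receptor, was at 7.66, 7.25 and 8.09 in NDF and 9.08, 8.36 and 8.20 in CAF, a difference of 0.88 (adjusted p = 0.463). Its partner in the protein C pathway, thrombomodulin Thbd, was steady in all 6 samples, at 12.02, 12.03 and 12.10 in NDF and 12.31, 12.25 and 12.03 in CAF, and its difference had an interval of -0.26 to 0.55. Nos3, the endothelial nitric oxide synthase, was at 4.90, 4.19 and 4.43 in NDF and 4.66, 5.77 and 5.28 in CAF, with overlap and a difference of 0.73 (-0.06 to 1.52).

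The probe sets of a gene did not always move together. Of the 66 probe sets, 56 had a higher mean in CAF, and 39 had all CAF arrays above all NDF arrays, against 5.69% of all probe sets. At an unadjusted p under 0.05, 38 were higher in CAF, against 3.82% of all probe sets, and 1, of Erg, was lower. Tested one by one over 45037 probe sets, only the brighter Lyve1 probe set passed, against 0.144% of all probe sets that rose. At or above the median of all probe set means, 32 of 44 probe sets had all CAF arrays above all NDF arrays, with a median difference of 1.14. Below it 7 of 22 did, with a median of 0.11. These means include the CAF arrays, so high CAF values themselves move a probe set into the brighter class. The brighter Lyve1 probe set, at 4.39 in NDF and 7.77 in CAF, passed the median of 4.84 only through its CAF arrays. The contrast of the classes is therefore partly built in, and the same shares over all probe sets were not computed. Among the 28 probe sets not used at gene level the median difference was 0.71. For 16 genes there was more than 1 probe set.

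**Figure D3:**
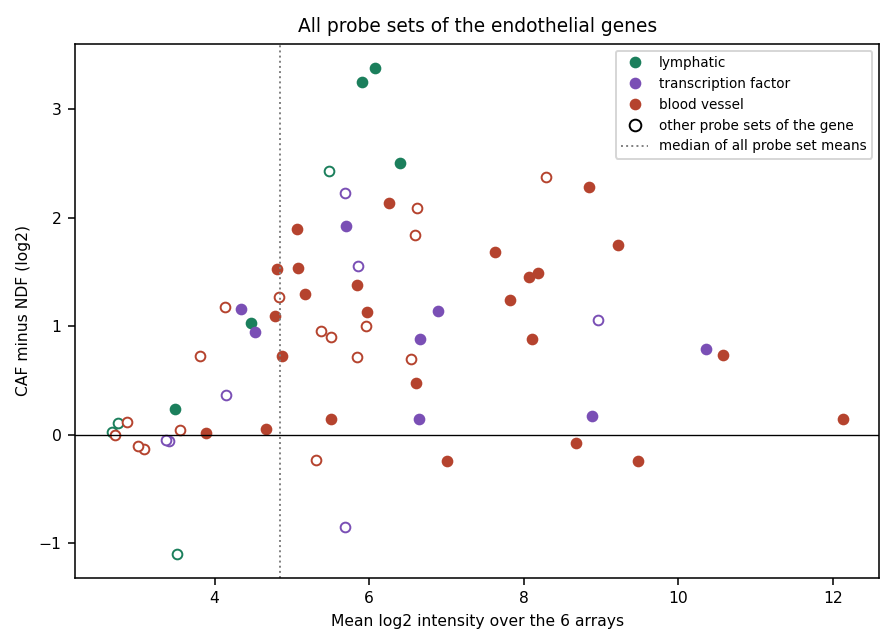
Difference between CAF and NDF (log2, y axis) against the mean log2 intensity over the 6 arrays (x axis) for all 66 probe sets, with filled points for the probe set used for its gene; the dotted line is the median of all probe set means, 4.84. Most points left of the line lie near 0, and the lowest point, at -1.09, is a dim Prox1 probe set.

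Other endothelial genes, from lists written from textbook knowledge but with earlier results of these data known, gave mixed values. The lists share no gene with the endothelial set above. The difference was above 0 for 45 of 56 blood endothelial and 15 of 21 lymphatic genes. Because the lists were not chosen blind to the data, their counts are not an independent check of the set. Of 56 other blood endothelial genes, 2 rose and 0 fell, against 0.489% and 0.0275% of all genes, and the median difference was 0.70. An unadjusted p under 0.05 was reached by 21 with higher and 1 with lower CAF levels, against 4.93% and 4.02%. All CAF arrays lay above all NDF arrays for 23 and below for 3, against 6.78% and 8.66%. The endothelin receptor gene Ednrb, which melanocyte precursors and other skin cells also express, rose by 3.10 ± 0.19 from 7.78 ± 0.14 to 10.88 ± 0.22 (adjusted p = 0.00347). Selp, the adhesion molecule P-selectin of activated endothelium and platelets, was at 6.36, 4.73 and 6.09 in NDF and 9.02, 10.43 and 9.17 in CAF and rose by 3.81 ± 0.54 (adjusted p = 0.0461). The VEGF receptor gene Flt1 was at 6.44, 6.67 and 6.93 in NDF and 8.59, 9.82 and 8.74 in CAF (adjusted p = 0.0518), and Kdr differed by 1.64 (adjusted p = 0.297). The largest difference in the list, 3.91 for Cyyr1, came with a wide spread in CAF, at 7.11, 8.23 and 9.56, and missed the threshold (adjusted p = 0.0856). Tspan18, a tetraspanin, went the other way, at 8.86, 8.89 and 9.54 in NDF and 7.91, 7.74 and 7.56 in CAF, without overlap, a difference of -1.36 ± 0.24 (adjusted p = 0.0895).

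Of 21 measured further lymphatic genes, 1 rose and 0 fell, against 0.489% and 0.0275% of all genes, and the median was 0.21. At an unadjusted p under 0.05, 7 had higher and 0 had lower CAF values, against 4.93% and 4.02% of all genes. All CAF arrays lay above all NDF arrays for 6 and below for 1, against 6.78% and 8.66%. The gene that rose was Fgl2, a prothrombinase also made by leukocytes, at 8.13, 8.07 and 8.19 in NDF and 9.52, 9.42 and 9.37 in CAF (1.31 ± 0.16, adjusted p = 0.0304). Flt4, the lymphatic receptor of VEGF-C, differed by 2.05 ± 0.47 (adjusted p = 0.181) and Gata2, a factor of lymphatic valves and mast cells, by 2.05 ± 0.39 (adjusted p = 0.110). Pdpn, the lymphatic and fibroblast glycoprotein podoplanin, was at 12.39 ± 0.02 in NDF and 12.59 ± 0.16 in CAF, with an interval of -0.21 to 0.61. Gja1 and Maf of this list were also high in NDF, at 12.49 and 11.72, and Thy1 is also in the dermal fibroblast list. The list further holds the ligand genes Vegfc and Vegfd, so its median is not a reading of lymphatic endothelium alone.

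The CAF arrays differed among themselves in the level of the whole set. CAF replicate 1 was the lowest CAF array for 24 of the 38 genes and replicate 2 the highest for 21. The median excess over the NDF mean was 0.76 on CAF replicate 1, 1.19 on replicate 2 and 0.94 on replicate 3, against -0.03, -0.13 and 0.05 over all genes. For the lymphatic genes it was 1.70, 3.20 and 2.61. NDF replicate 1 was the highest normal array for 20 of the 38 genes.

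Leukocyte and keratinocyte markers were higher on the same arrays, and their part in the endothelial differences was not tested. The mean log2 level of 14 pan-leukocyte genes was 4.05 to 4.78 on the NDF arrays and 6.33 to 7.65 on the CAF arrays, with 4 of the 14 rising. For 21 macrophage genes the ranges were 4.50 to 5.30 in NDF and 5.97 to 7.48 in CAF, with 2 of the 21 rising, and for 12 neutrophil genes 3.94 to 4.65 in NDF and 6.73 to 8.03 in CAF, with 3 of the 12 rising. Beside Lyve1 and Stab1, the tissue macrophage gene Mrc1 was at 7.67, 5.40 and 5.69 in NDF and 7.93, 8.72 and 9.83 in CAF. Cd163, of the same cells, was at 5.93, 3.55 and 3.54 in NDF and 6.19, 6.27 and 10.59 in CAF. Neither passed the limma test (adjusted p = 0.279 for Mrc1 and 0.505 for Cd163). Of the 21 macrophage genes, 15 had every CAF array above every NDF array, against 6.78% of all genes. Folr2, Aif1, Timd4 and Cx3cr1 overlapped, at differences of 0.98, 0.95, 0.40 and 0.05. Itgam and Marco also overlapped, at -0.10 and -0.09. The 2 macrophage genes that rose were Tyrobp, at 4.99, 4.40 and 4.59 in NDF and 7.66, 8.68 and 8.59 in CAF, and Cd14, at 5.08, 5.02 and 5.60 in NDF and 8.86, 10.29 and 8.63 in CAF. Stab1, Mrc1 and Cd163 were highest on CAF replicate 3, and Lyve1, Tyrobp and Cd14 on CAF replicate 2. Over all 21 macrophage genes the mean level was 5.97, 6.15 and 7.48 on CAF replicates 1, 2 and 3. Tyrobp and Cd14 thus departed from the order of their list, which was highest on replicate 3. For the 12 neutrophil genes the mean was 6.73, 8.03 and 7.34, highest on replicate 2. Whether Lyve1 follows either list was not tested. Keratinocyte genes were at 6.44 to 6.67 in NDF and 8.09 to 9.34 in CAF, with 4 of 17 rising and CAF replicate 2 the lowest CAF array. Each of these counts of rising genes stands against 0.489% of all genes.

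Pericyte and platelet genes had median differences near 0. For 18 pericyte and mural genes, 0 passed the limma test and the median was -0.01. An unadjusted p under 0.05 was reached by 3 (CAF higher), against 4.93% of all genes. The mural genes Mcam, which endothelium also carries, and Rgs5 differed by 2.38 and 1.58 (adjusted p = 0.114 and 0.176). For 10 platelet genes the mean level was 4.16 to 4.49 in NDF and 4.46 to 5.09 in CAF, and 0 passed the test. Of the 10, 2 were higher at an unadjusted p under 0.05, against 4.93% of all genes. These 2 were the chemokine genes Pf4, which is also in the macrophage list, and Ppbp, which differed by 2.85 and 1.41 (adjusted p = 0.281 and 0.161), each with every CAF array above every NDF array. The platelet glycoprotein genes Gp9 and Itga2b differed by -0.03 and -0.08. Of 7 erythroid genes, Alas2 rose by 2.83 (adjusted p = 0.0496), and the globin gene Hba-a1 was at 3.24, 3.16 and 3.72 in CAF, near the lowest values on the arrays.

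For 11 mast cell genes the ranges were 4.24 to 4.53 in NDF and 4.76 to 6.10 in CAF, and for 11 dendritic cell genes 4.63 to 4.73 in NDF and 5.07 to 5.53 in CAF, with 0 of each passing the limma test and 5 and 2 higher at an unadjusted p under 0.05. Schwann cell genes were at 6.90 to 7.11 in NDF and 6.70 to 7.33 in CAF, with 0 of 9 passing the limma test and 0 at an unadjusted p under 0.05. The sort marker Pdgfra was at 12.30, 12.47 and 12.60 in NDF and 12.66, 12.45 and 12.50 in CAF. Dermal fibroblast genes were at 12.01 to 12.08 in NDF and 11.56 to 12.06 in CAF, lowest on CAF replicate 3. Of 19, 0 passed the limma test, with 1 higher and 4 lower by unadjusted p under 0.05. The counts for mast cell, dendritic, Schwann cell and fibroblast genes at this p stand against 4.93% of all genes higher and 4.02% lower.

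**Figure D4:**
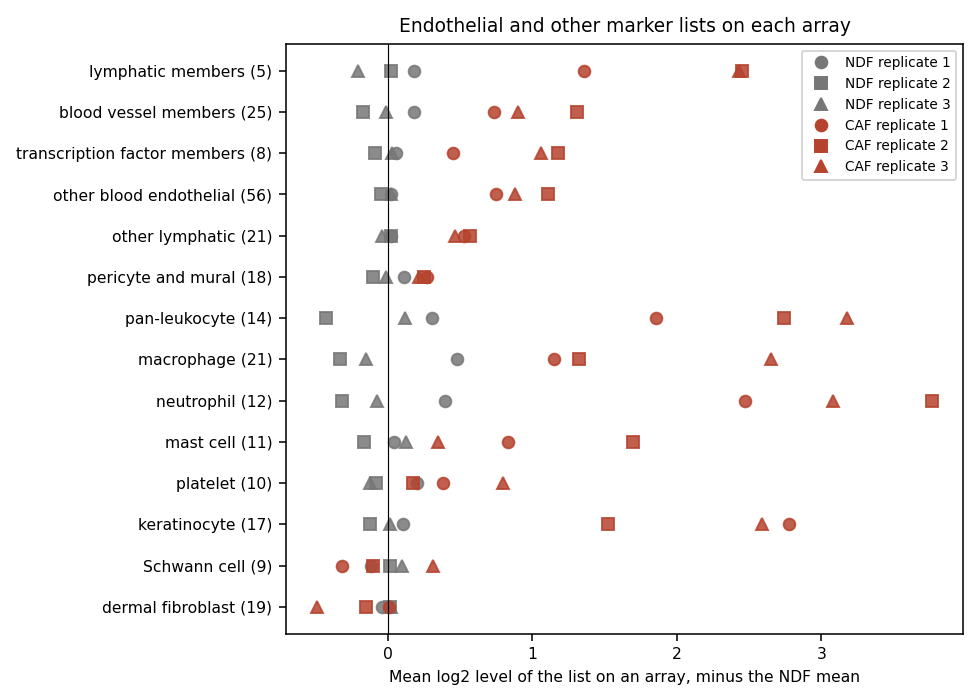
Mean log2 level of each gene list on each array, minus the mean of the 3 NDF arrays (x axis), for the endothelial groups and marker lists of other cells (y axis, number of measured genes in brackets); shape gives the replicate number. The lymphatic genes lie at 1.36, 2.45 and 2.43 on CAF replicates 1, 2 and 3, the blood vessel genes at 0.73, 1.31 and 0.90, and the dermal fibroblast genes at 0.01, -0.15 and -0.49.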

How the data were processed

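The deposited values are log2 probe set intensities of Affymetrix whole-genome mouse arrays (range 2.20 to 14.60). GCOS and RMA are named in the submitters' processing notes, without version or order. Per the labels' protocols, the RNA went through a WT-Ovation amplification and carried a biotin label. RMA compresses low values, so differences of dim genes are understated. The precision is limited by the number of arrays, and array medians were 4.73 to 4.87. No coordinates are given for probe sets, for lack of a stated build.

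The annotation gave 1 gene for 34945 of 45037 non-control probe sets, several for 932 and no entry for 9160. Of the former, 34741 matched a RefSeq gene identifier (GRCm38.p6) and 0 symbols changed. Each gene was represented by its probe set of highest mean level over the 6 arrays, the CAF arrays included. The comparison of CAF with NDF used limma 3.58.1 in R 4.3.3 (lmFit, eBayes, group as the only term, two-sided, Benjamini-Hochberg over 18193 genes, threshold 0.05, 2.79 prior degrees of freedom). Tested on simulated data that held 200 changed genes, the procedure recovered 82% of changes of 3 log2 units and 94% of changes of 4, with 8 false calls. Plots used Python 3.11.15 and matplotlib 3.10.9.

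The genes, their groups and all lists were chosen with earlier results of these data known. Values on every array are given for each gene past the threshold and, in each of 6 role groups, for the 4 genes with the smallest p and the 1 with the largest; of the other endothelial lists the 3 genes with the smallest p are given. Fli1, Lmo2, Cdh5, Calcrl, Ramp2, Kdr, Cyyr1, Tspan18, Pdpn and the named markers of other cells were added after their values were seen. Alternatives were a replicate block, 3 renormalisations, 2 filters on dim probe sets, the mean of all probe sets, leaving out cross-matching probe sets, 2 other priors, array weights, a threshold of 0.1, and leaving out arrays.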

Additional observations from a re-analysis of the deposited data

How the results depend on the processing

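The number of genes called varied with the arrays used. All genes called numbered 94, and between 5 and 156 when 1 array was left out. Genes of the set called numbered 1, and between 0 and 3 without 1 array, and probe sets of the set called between 0 and 3. Leaving out any NDF array ended the Lyve1 call. Without both NDF replicate 1 and CAF replicate 3, 113 genes were called, and of the set Ecscr (adjusted p = 0.0290) in place of Lyve1 (0.0611), with 0 probe sets. With the replicate number as a block 20 genes were called, 0 of the set (Lyve1 adjusted p = 0.0630) and 0 of its probe sets. Deviations of same-numbered arrays correlated at -0.14, 0.14 and -0.04, and not every array correlated best with its own number, so the numbers were not taken as pairs. Quantile normalisation again and cyclic loess left 0 of the probe sets and kept the Lyve1 gene call. The mean of all probe sets called 2 genes of the set (Ecscr and Lyve1), with medians of 1.03 for lymphatic and 0.88 for blood vessel genes. An intensity trend called 155 genes and a threshold of 0.1 called 198, of which 3 in the set (Ecscr, Lyve1 and Mmrn1). Array weights called 438 genes, 6 of the set (Cldn5, Ecscr, Emcn, Lyve1, Robo4 and Sox7) and 4 of its probe sets, with a median of 0.58 for the transcription regulators. The weights were 0.17 for CAF replicate 3 and 0.82 to 2.56 for the others. The count of genes of the set higher at an unadjusted p under 0.05 was 26, and 18 to 26 over the alternatives. The 18 came without cross-matching probe sets, where 29 of the 38 genes had a probe set. At this p 4.93% of all genes were higher in the main fit, and their share in the alternatives is not given. The filter at the median left 30 of the 38, and the filter at the 25th percentile 37. Both filters act on a mean level that includes the CAF arrays, so high CAF values help a gene to pass. The medians after filtering, 3.25 for lymphatic genes with the filter at the median, are therefore partly built in. Medians of the whole set and of its 3 groups stayed above 0 in every alternative run. The cause of these changes was not tested, other than that fewer arrays or genes were fitted where arrays or probe sets were left out.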
